A study of Mus musculus with 21 samples.

Results

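Nascent RNA of mouse cortical cultures that had received the MLL1 inhibitor MM401 was compared with that of cultures that had received its solvent DMSO, in both cases after 4 h of bicuculline. The members of this comparison are 6 of the 21 libraries of the study, namely 3 of MM401 with bicuculline at 4 h and 3 of DMSO with bicuculline at 4 h. The cultures were prepared from the cortex of CD1 mice, an outbred strain with no genetic change stated in the labels, and were used at day 17 in vitro. They were preincubated for 30 min with DMSO or 25 µM MM401, then given 40 µM bicuculline for 4 h, and 2 mM bromouridine was present during the last 30 min in all groups. Other groups held water in place of bicuculline or were stopped at 1 h, and those of both pretreatments in bicuculline at 1 h and in water at 4 h, and of MM401 in water at 1 h, are used below where conditions are compared. The labels call the replicates biological and of mixed sex, but do not say whether they came from separate cultures or animals, so the tests measure the spread between these samples. The labels call the preparations primary neuron cultures, and glial markers were present as well, so each value is an average over their cell types.

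MLL1, encoded by Kmt2a, is one of a family of enzymes that methylate lysine 4 of histone H3, a mark of promoters in use, and it works within a complex that contains WDR5, RBBP5, ASH2L and DPY30. MM401 is a peptide-like compound that occupies the pocket of WDR5 to which MLL1 binds, and so lowers the activity of the MLL1 complex. Bicuculline blocks GABA-A receptors, the main inhibitory receptors of the cortex, and the resulting rise in firing first induces rapid transcription factor genes such as Fos and Egr1 and then delayed effector genes such as Bdnf and Nptx2. Over hours, raised activity also leads neurons to scale down their synapses. BrU-seq sequences the RNA that took up bromouridine within a short window, so that values report RNA made then, introns included, and not the stored mRNA.

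The 6 libraries held 55792879 to 87939384 counts in genes and detected 18871 to 19199 genes each. One library of the series, of MM401 with water at 4 h, held 316741 counts, which was 0.512% of the median library, and was left out of all fits. The remaining 20 libraries shared 1 edgeR quasi-likelihood fit, and levels are given as CPM, counts relative to the size of the library, after TMM scaling. Markers of the labelled cells were present: the 11 excitatory neuron markers summed to 1359 ± 30.8 CPM (SD, n = 3) in DMSO and to 1259 ± 56.1 CPM in MM401, and the 12 inhibitory neuron markers to 2080 ± 100.1 and 1853 ± 157 CPM. For both sums, which rest on TMM scaling, the ranges of the groups did not overlap and MM401 was lower in 3 of 3 pairs of same-numbered libraries (difference -100.0 and -227 CPM, exact permutation p = 0.1, two-sided, the smallest p that 3 against 3 can give). Under plain library size the median log2 fold changes of both lists, -0.03 and -0.05 under TMM, turned to 0.08 and 0.06. The median of all genes was then 0.11. Pvalb and Dlx1 were under 1 CPM. In bulk RNA, fewer cells of a type and less RNA per cell cannot be told apart.

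MM401 left the nascent transcriptome after 4 h of bicuculline close to that of DMSO. No gene was called in the fit on 20 libraries (0 of 16959, 0%, edgeR quasi-likelihood test, Benjamini-Hochberg adjusted p under 0.05, lowest adjusted p = 0.474), and 1309 genes (7.72%) had an unadjusted p under 0.05, 467 of them higher (2.75%) and 842 lower (4.96%) in MM401. DESeq2 on the same libraries called 7 genes: Cyp1b1, Cspg4 and Smpd1 were higher and Cct4, Pak1, Cep112 and Rpl23 were lower. In the edgeR fit on 20 libraries the differences were bounded as well as uncalled. Of 12377 genes with a mean of at least 2 CPM, the 95% interval of the log2 fold change lay within -1 and 1 for 99.5% and within -0.5 and 0.5 for 91.4%. Only 9 of these genes had a fitted change of at least 0.5 in size on the log2 scale, and 0 had one of at least 1. Larger fitted values, 122 of at least 1 over all genes tested, belonged to genes below that level.

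**Figure D1:**
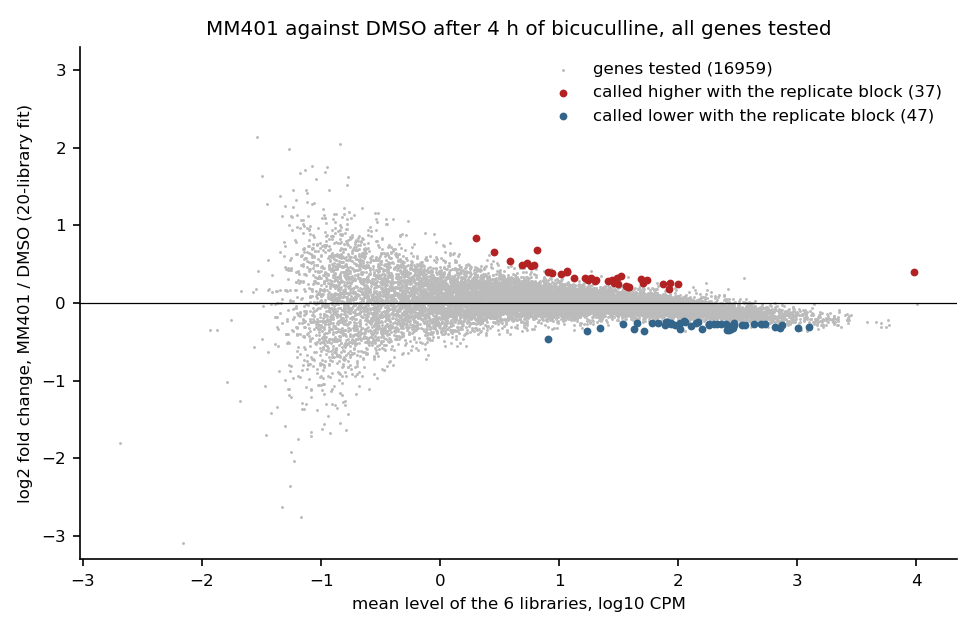
Each point is 1 of the 16959 genes tested, with the mean level of the 6 libraries on a log10 CPM axis and the log2 fold change of MM401 over DMSO from the fit on 20 libraries on the vertical axis. The spread narrows with level, and the 37 higher and 47 lower genes called by edgeR with the replicate number as a term lie at its edges, with the lower genes toward the right.

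Same-numbered libraries of both groups deviated from their group means together, so the replicate number was also entered as a block in a fit on the 6 libraries. With this block 84 of 16047 genes were called (0.523%), 37 higher (0.231%) and 47 lower (0.293%) in MM401, and 2455 (15.3%) had an unadjusted p under 0.05. The 84 changes were small. Their log2 sizes ran from 0.20 to 0.86 with a median of 0.29, and 3 reached 0.58. Each of the 84 had the same sign in 3 of 3 pairs, as 38.7% of all genes in that fit did, and in 76 of them the CPM of the groups did not overlap, as in 17.5% of all genes tested. These counts describe the genes that the fit selected and are no further support for it.

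The calls depended on the third pair and on how many libraries the fit held. Without the libraries of replicate 3 the blocked fit called 1 gene, the pre-ribosomal RNA gene Rn45s, while it called 257 without replicate 1 and 120 without replicate 2. It called 0 genes when the block was applied over all 20 libraries or over the 12 bicuculline libraries, and the 6 libraries without a block gave 0 calls. All 84 genes kept their sign in each of these fits. The values that follow are from the fit on 20 libraries unless the block is named, and "called with the block" refers to the 6 libraries.

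**Figure D2:**
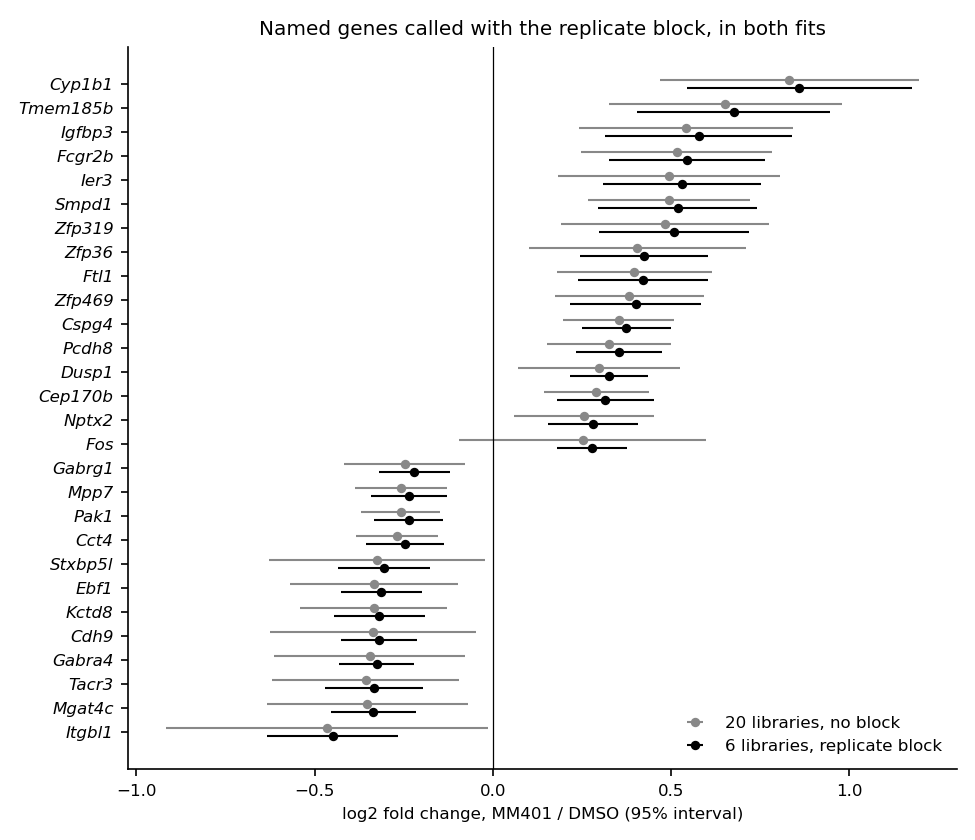
Points are log2 fold changes of MM401 over DMSO with 95% intervals for the 28 named genes that were called with the block, in the fit on 20 libraries without a block (grey) and in the fit on 6 libraries with it (black). The 16 higher and 12 lower genes have nearly the same values in both fits. The intervals without the block exclude 0 for 27 of 28 (all but Fos), although none passed the adjustment over all genes. The genes were chosen by calls on libraries that both fits share, so this is no further support. In the fit on 20 libraries 7.72% of all genes had an unadjusted p under 0.05 (edgeR).

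Of the 37 genes called higher with the block, the largest change was that of Cyp1b1, a cytochrome P450 enzyme and a known target of the aryl hydrocarbon receptor, the sensor of planar foreign compounds. The gene (chr17:79706940-79715061, minus strand, build mm10) stood at 1.33, 1.48 and 1.49 CPM in DMSO replicates 1 to 3 and 2.34, 2.45 and 2.88 CPM in the MM401 replicates. All 3 MM401 libraries lay above all 3 DMSO libraries, which was asked of genes named for their p-value or blocked change. The mean reached the 2 CPM asked of named genes in MM401 only. This was a log2 fold change of 0.83 ± 0.18 (SE) without a call (edgeR adjusted p = 0.474), and of 0.86 ± 0.15 in the blocked fit (edgeR adjusted p = 0.0215). Ahrr (chr13:74211117-74292331, minus strand), the repressor of the same receptor and itself one of its targets, stood at 2.18, 1.96 and 1.99 CPM in DMSO and at 2.71, 2.81 and 3.03 CPM in MM401. Its groups did not overlap either, but it was not called with the block (0.51 ± 0.14, edgeR adjusted p = 0.0937). Of 11 listed genes of this pathway 8 were measured well enough to test, and 1 of them was called with the block, in a fit where 0.231% of all genes were called higher. The receptor gene Ahr had a log2 fold change of 0.01, its partner Arnt of -0.12 ± 0.05 and the target gene Tiparp of -0.01, none of them called, and the list's median was 0.00 against -0.00 over all genes. Cyp1a1, Cyp1a2 and Aldh3a1 did not pass the filter on low counts.

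The promoters of Cyp1b1 and Ahrr are shown because they are the pathway genes with the largest differences here; capitals mark each GCGTG, the core to which the aryl hydrocarbon receptor and ARNT bind, or its reverse complement CACGC. Sequences are from RefSeq, build GRCm38.p6, 250 bases before to 50 after the start, 5′ to 3′ on the gene's strand.
Cyp1b1 promoter, chr17:79715012-79715311, minus strand: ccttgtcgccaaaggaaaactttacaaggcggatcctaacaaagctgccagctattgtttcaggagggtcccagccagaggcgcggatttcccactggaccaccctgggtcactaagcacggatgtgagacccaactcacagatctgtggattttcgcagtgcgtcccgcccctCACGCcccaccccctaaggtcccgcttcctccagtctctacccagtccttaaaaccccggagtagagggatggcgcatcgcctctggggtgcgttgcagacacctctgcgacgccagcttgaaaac
Ahrr promoter, chr13:74292282-74292581, minus strand: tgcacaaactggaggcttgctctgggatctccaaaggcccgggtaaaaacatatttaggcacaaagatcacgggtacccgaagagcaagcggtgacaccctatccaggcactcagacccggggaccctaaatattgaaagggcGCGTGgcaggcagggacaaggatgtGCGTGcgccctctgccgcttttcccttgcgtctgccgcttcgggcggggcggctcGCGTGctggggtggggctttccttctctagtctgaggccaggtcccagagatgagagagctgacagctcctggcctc
The Cyp1b1 window held 1 match and the Ahrr window 3, none of them overlapping. One of these letter strings on either strand occurred in 32.2% of 27025 promoter windows of the same length, so that a match is common and only describes the sequence.

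Most rapid activity-induced genes, which encode transcription factors and feedback regulators, had positive values in MM401. Of 22 tested, 18 had a positive log2 fold change and the median was 0.19, against 49% positive and a median of -0.00 over all genes. The median was 0.12 without DMSO replicate 3. None was called without the block, and 2, Fos and Dusp1, were called higher with it, in a fit where 0.231% of genes were called higher. These genes are short, with a median length of 4746 bases, and 70.8% of all genes under 10 kb had a positive value with a median of 0.09. Fos (chr12:85473889-85477274, plus strand), the AP-1 subunit, stood at 88.7, 97.5 and 88.4 CPM in DMSO and at 111, 109.7 and 106 CPM in MM401. The lowest MM401 library was above the highest DMSO library. Its difference of 0.25 ± 0.16 was not called in the larger fit (edgeR adjusted p = 0.685), and the blocked fit gave 0.28 ± 0.05 (edgeR adjusted p = 0.0205). Dusp1 (chr17:26505590-26508472, minus strand), a phosphatase that switches off MAP kinases, stood at 52.0, 51.7 and 43.4 CPM in DMSO and at 60.2, 62.0 and 58.6 CPM in MM401. Its groups did not overlap, and the difference was 0.30 ± 0.11 without the block and 0.33 ± 0.05 with it (edgeR adjusted p = 0.0153).

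The promoters of Fos and Dusp1 are shown as the rapid genes called with the block; capitals mark each TGACG, the core of the cyclic AMP response element bound by CREB, or its reverse complement CGTCA (RefSeq, GRCm38.p6, same window).
Fos promoter, chr12:85473640-85473939, plus strand: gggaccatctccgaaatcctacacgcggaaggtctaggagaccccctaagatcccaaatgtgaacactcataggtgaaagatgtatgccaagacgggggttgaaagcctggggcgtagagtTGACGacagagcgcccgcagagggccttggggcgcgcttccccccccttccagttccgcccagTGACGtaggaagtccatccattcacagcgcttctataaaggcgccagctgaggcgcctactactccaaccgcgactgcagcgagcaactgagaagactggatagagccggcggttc
Dusp1 promoter, chr17:26508423-26508722, minus strand: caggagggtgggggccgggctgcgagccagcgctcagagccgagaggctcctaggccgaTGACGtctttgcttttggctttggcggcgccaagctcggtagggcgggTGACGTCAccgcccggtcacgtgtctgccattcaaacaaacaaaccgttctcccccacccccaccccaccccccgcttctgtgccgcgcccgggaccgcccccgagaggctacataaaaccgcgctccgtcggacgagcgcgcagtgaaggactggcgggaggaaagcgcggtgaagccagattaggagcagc
Fos held 2 matches and Dusp1 3, of which a pair overlaps in the palindrome TGACGTCA. These letters were found in 20.7% of the 27025 windows.

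Other rapid genes gave smaller or less certain differences. Egr4 and Ier2, both low at this time, had the largest values of the list, 0.46 ± 0.18 and 0.45 ± 0.19, with MM401 above DMSO in 3 of 3 pairs and no call with the block (edgeR adjusted p = 0.0645 and 0.0599). Egr1 was at 56.2 ± 5.96 CPM in DMSO and 64.4 ± 1.17 CPM in MM401 (SD, n = 3), a difference of 0.20 ± 0.10 that was not called with the block either (edgeR adjusted p = 0.0866) and was 0.12 without DMSO replicate 3. Npas4, a factor induced by calcium entry, differed by less than the spread between libraries: 348, 265 and 242 CPM in DMSO and 335, 295 and 256 CPM in MM401, a difference of 0.05 with a 95% interval of -0.29 to 0.40. Arc, whose product drives the internalisation of AMPA receptors, had a value of 0.05 (-0.28 to 0.38) and the nuclear receptor gene Nr4a1 one of 0.08 (-0.10 to 0.27). The 3 MM401 libraries overlapped those of DMSO for Npas4, Arc and Nr4a1. Of these only Nr4a1 was higher in MM401 in 3 of 3 same-numbered pairs. With the block its fold change had a 95% interval of 1.01 to 1.15, and it was not called. With 1 library left out its log2 value ran from 0.01 to 0.12. The sign of Arc and Npas4 changed when 1 library was left out.

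Delayed activity-induced genes, whose products act at synapses or are secreted, gave 12 of 18 positive values with a median of 0.12, and 1 call with the block, where 0.231% of all genes were called higher. The median was 0.06 without DMSO replicate 3. Their median length was 9.42 kb, in the class under 10 kb in which 70.8% of all genes were positive. The called gene was Nptx2 (chr5:144545886-144557478, plus strand), a secreted pentraxin that clusters AMPA receptors on interneurons. It stood at 43.0, 52.1 and 44.2 CPM in DMSO and at 48.6, 57.1 and 60.6 CPM in MM401. The groups overlapped, but each MM401 library was above the DMSO library of the same number, and the difference was 0.26 ± 0.09 without the block and 0.28 ± 0.06 with it (edgeR adjusted p = 0.044). Bdnf, the growth factor, was at 1396 ± 32.3 CPM in DMSO and at 1382 ± 44.8 CPM in MM401, a difference of -0.02 with a 95% interval of -0.22 to 0.19. At the other end of the list was Homer1, the scaffold gene whose short form is induced by activity, with 818, 720.0 and 688 CPM in DMSO against 654, 659.9 and 563 CPM in MM401. All its MM401 libraries lay below all DMSO libraries, and the difference of -0.25 ± 0.13 was not called with the block (edgeR adjusted p = 0.0862). Vgf, a neuropeptide precursor gene, had the largest positive value, 0.41 ± 0.12, also without a call (edgeR adjusted p = 0.131 with the block). Plk2, a kinase of synaptic scaling, had a value of 0.10 (-0.06 to 0.26), which ran from 0.03 to 0.17 with 1 library left out.

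**Figure D3:**
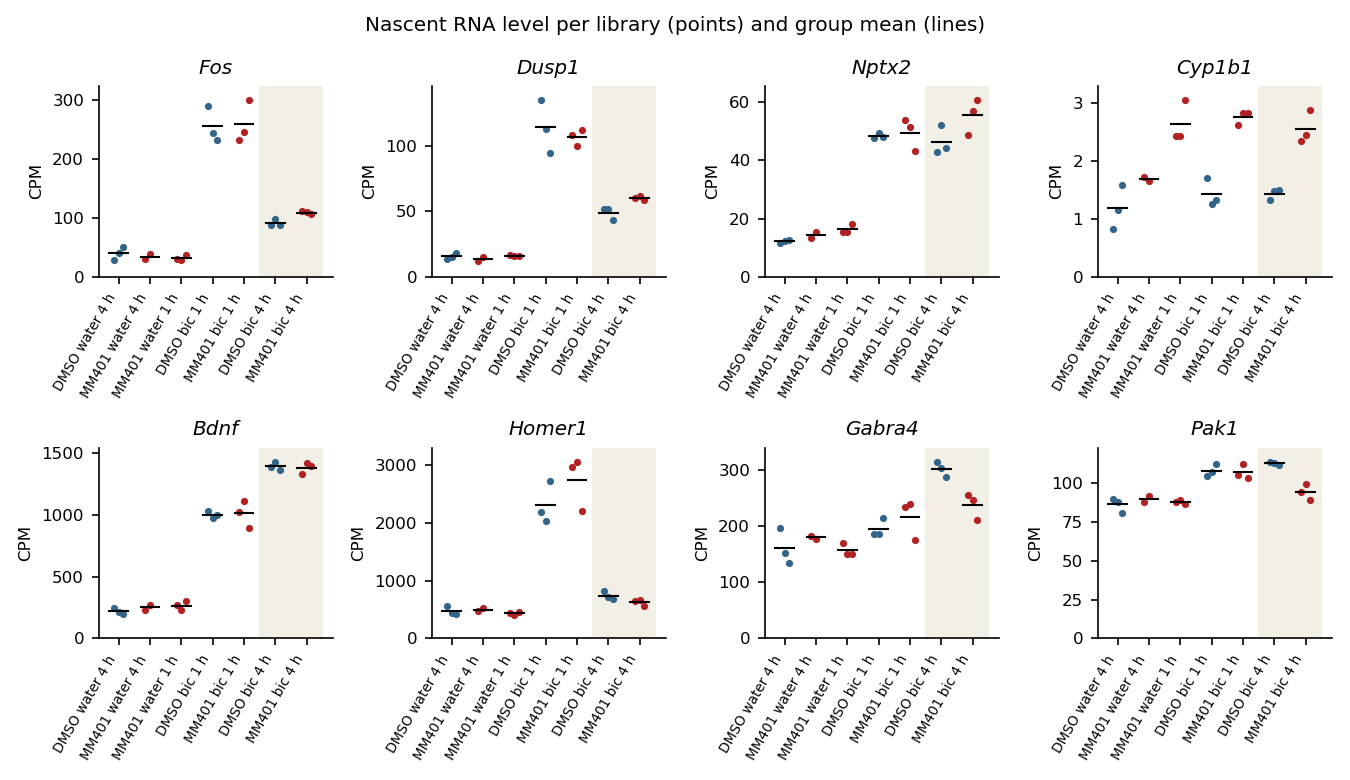
CPM of each library (points) and the group mean (lines) for 8 genes across the 7 groups, blue for DMSO and red for MM401, without the shallow library; the shaded columns are the 2 groups compared. In those columns Fos, Dusp1 and Cyp1b1 lie higher and Gabra4, Pak1 and Homer1 lower in each MM401 library, and Nptx2 and Bdnf overlap.

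Genes that bicuculline had raised at least 2-fold by 1 h were also described as a set, chosen from libraries outside the 6: in DMSO the bicuculline libraries at 1 h were set against water at 4 h, and in MM401 against water at 1 h. The 266 such genes in both pretreatments had a median of 0.02 with 54.9% positive, against 49% of all genes. With the block 7 of the 260 tested were called higher and 4 lower, in a fit that called 0.231% of all genes higher and 0.293% lower. Besides Fos, Dusp1, Nptx2 and Pcdh8, the higher ones were Dusp6, Jund and Nppc, and the lower ones were Sik2, Cpeb3, Kitl and B230209E15Rik, given here because they complete the count. Among the 52 genes lowered in the same way, the median was 0.15 and 0 were called with the block.

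The other genes higher in MM401 that the naming rule selected belonged to no single pathway. Tmem185b, a transmembrane protein gene, went from 2.25, 2.19 and 2.22 CPM to 3.49, 3.31 and 3.66 CPM, a difference of 0.65 ± 0.16 (0.68 ± 0.13 with the block, edgeR adjusted p = 0.0281). Smpd1, the lysosomal acid sphingomyelinase, went from 4.07, 4.21 and 3.87 CPM to 5.73, 5.55 and 5.80 CPM, a difference of 0.49 ± 0.11 (0.52 ± 0.11 with the block, edgeR adjusted p = 0.0298). Cspg4, the NG2 proteoglycan of oligodendrocyte precursors, went from 27.6, 28.0 and 31.3 CPM to 39.8, 33.6 and 37.6 CPM, a difference of 0.35 ± 0.08 (0.37 ± 0.06 with the block, edgeR adjusted p = 0.0153). In all 3 every MM401 library lay above every DMSO library. This was asked of genes named for their p-value or blocked change, and 17.5% of all genes tested had no overlap. Igfbp3, which binds insulin-like growth factors, Fcgr2b, the inhibitory receptor for IgG, Ier3, an early stress-response gene, and Zfp319, a zinc finger gene, had changes of 0.54, 0.52, 0.49 and 0.48. Zfp36, whose product destabilises AU-rich mRNAs, changed by 0.40, the ferritin light chain gene Ftl1 by 0.40 and Pcdh8, an activity-induced protocadherin, by 0.33. Each of these was called with the block (edgeR adjusted p = 0.0155 to 0.044). Reads of Pcdh8 cannot be told from those of the overlapping gene Gm9748 if strand was not used in counting.

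Rn45s, the pre-ribosomal RNA gene, took 0.806%, 0.723% and 0.726% of the counts in DMSO and 1.07%, 1.01% and 1.14% in MM401. Every MM401 library was higher, and its change with the block was 0.43 ± 0.08 (edgeR adjusted p = 0.0281). The gene exists in many near-identical copies, so how the authors assigned reads bears on this value. The share ranged from 0.723% to 2.01% over the 20 libraries, and it was highest in a DMSO library with water.

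Most GABA-A receptor subunit genes, which encode the receptor that bicuculline blocks, had negative values in MM401. Of 14 tested GABA-A subunit genes 11 had negative values, with a median of -0.14 (-0.02 under plain library size), and 2 were called lower with the block, in a fit where 0.293% of genes were called lower. Their median length was 97.0 kb, and of all genes 34.2% of those of 30 to 100 kb and 15% of those of 100 to 300 kb had positive values. Gabra4 (chr5:71569733-71658308, minus strand), the alpha 4 subunit found outside synapses, stood at 315, 304 and 287 CPM in DMSO and at 256, 247 and 210.2 CPM in MM401. Its groups did not overlap, and the difference was -0.35 ± 0.13 without the block and -0.33 ± 0.05 with it (edgeR adjusted p = 0.0153). Gabrg1 (chr5:70751046-70842617), a gamma subunit gene in the same cluster, stood at 91.1, 89.2 and 77.9 CPM in DMSO and at 75.1, 72.3 and 70.0 CPM in MM401, a difference of -0.25 ± 0.08 (-0.22 ± 0.05 with the block, edgeR adjusted p = 0.0436). Its groups did not overlap either. Gabra2 and Gabrg3 had values of -0.26 ± 0.12 and -0.27 ± 0.14 and were not called with the block (edgeR adjusted p = 0.0737 and 0.071). Gabrd, Gabre and Gabrq had small positive values of 0.02, 0.06 and 0.10. NMDA and AMPA receptor subunit genes gave 9 of 11 negative values with a median of -0.12 (-0.01 under plain library size) and 0 calls, led by Grin2a with -0.23 ± 0.14; their median length was 184 kb. Without MM401 replicate 3 the median of this list was -0.06. Under plain library size the median of all genes was 0.11.

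The other lower genes that the naming rule selected for large blocked changes were 78.7 to 710.0 kb long. Cdh9, a synaptic cadherin, stood at 123, 113 and 110.3 CPM in DMSO and at 102, 94.6 and 78.1 CPM in MM401, a difference of -0.34 ± 0.14 (-0.32 ± 0.05 with the block, edgeR adjusted p = 0.0153). Kctd8, an auxiliary subunit of GABA-B receptors, stood at 177, 178 and 179 CPM in DMSO and at 156, 146 and 121 CPM in MM401, a difference of -0.33 ± 0.10 (-0.32 ± 0.06 with the block, edgeR adjusted p = 0.0312). In both genes MM401 replicate 3 was the lowest of the 6 libraries. Mgat4c, a glycosyltransferase gene, Ebf1, a transcription factor gene, Stxbp5l, a regulator of vesicle release, Tacr3, the neurokinin B receptor gene, and Itgbl1 changed by -0.35, -0.33, -0.32, -0.36 and -0.47, each called with the block (edgeR adjusted p = 0.0215 to 0.0294).

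Pak1 and Cct4, both lower in MM401, varied very little between the DMSO replicates (SD 1.27 and 0.36 CPM). They varied more between the MM401 replicates (SD 5.16 and 1.38 CPM). Pak1, a kinase of the actin cytoskeleton, stood at 114, 113 and 112 CPM in DMSO and at 94.2, 99.7 and 89.4 CPM in MM401, a difference of -0.26 ± 0.05 (-0.24 ± 0.05 with the block, edgeR adjusted p = 0.0281). Cct4, a subunit of the chaperonin that folds actin and tubulin, stood at 37.6, 38.3 and 37.8 CPM in DMSO and at 30.6, 33.0 and 30.7 CPM in MM401. That was a difference of -0.27 ± 0.06 (-0.25 ± 0.05 with the block, edgeR adjusted p = 0.0422). The highest MM401 library was below the lowest DMSO library in both, which was asked of genes named for their p-value or blocked change. Rpl23, a ribosomal protein gene, and Cep112, a centrosomal protein gene, had values of -0.35 ± 0.08 and -0.21 ± 0.05. They were called by DESeq2 but not by edgeR with the block (edgeR adjusted p = 0.059 and 0.0752).

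The difference between MM401 and DMSO followed gene length. The median log2 fold change was 0.09 for 4472 genes under 10 kb, 0.02 for 5426 genes of 10 to 30 kb, -0.04 for 4685 genes of 30 to 100 kb, -0.09 for 1801 genes of 100 to 300 kb and -0.17 for 533 genes of 300 kb or more. The medians stood in this order in each of the 3 pairs, and the longest class lay below the shortest by 0.26 on the log2 scale under TMM, upper-quartile scaling, DESeq2 size factors and plain library size. Plain library size raised the median of all genes to 0.11, so signs of genes near 0 depend on the scaling. The genes called with the block parted in the same way: the 37 higher genes had a median length of 8.12 kb with 0 of at least 100 kb, and the 47 lower genes a median of 235 kb with 34 of at least 100 kb, against 14.5% of all genes in that fit. When each library's trend with gene length was removed, the block called 8 genes, Cspg4 and Rn45s higher and Gabra4, Cdh9, Sik2, Cct4, Rpl23 and B230209E15Rik lower.

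Genes 100 kb or longer took 62.4%, 62.3% and 62.3% of counts in DMSO and 60.9%, 60.8% and 58.4% in MM401. The MM401 libraries were all lower, and replicate 3 was the farthest from DMSO. The difference was -2.30 percentage points (exact permutation p = 0.1, two-sided, the smallest that 3 against 3 allows), and -1.50 without MM401 replicate 3. Among the other groups the share ran from 56.9% to 63.4%, so it also differed between libraries of 1 group by more than this. The neuron marker sums above, which hold several long genes, moved the same way, and their part in the length pattern was not tested. Nor was a batch of library preparation, which the labels do not give.

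**Figure D4:**
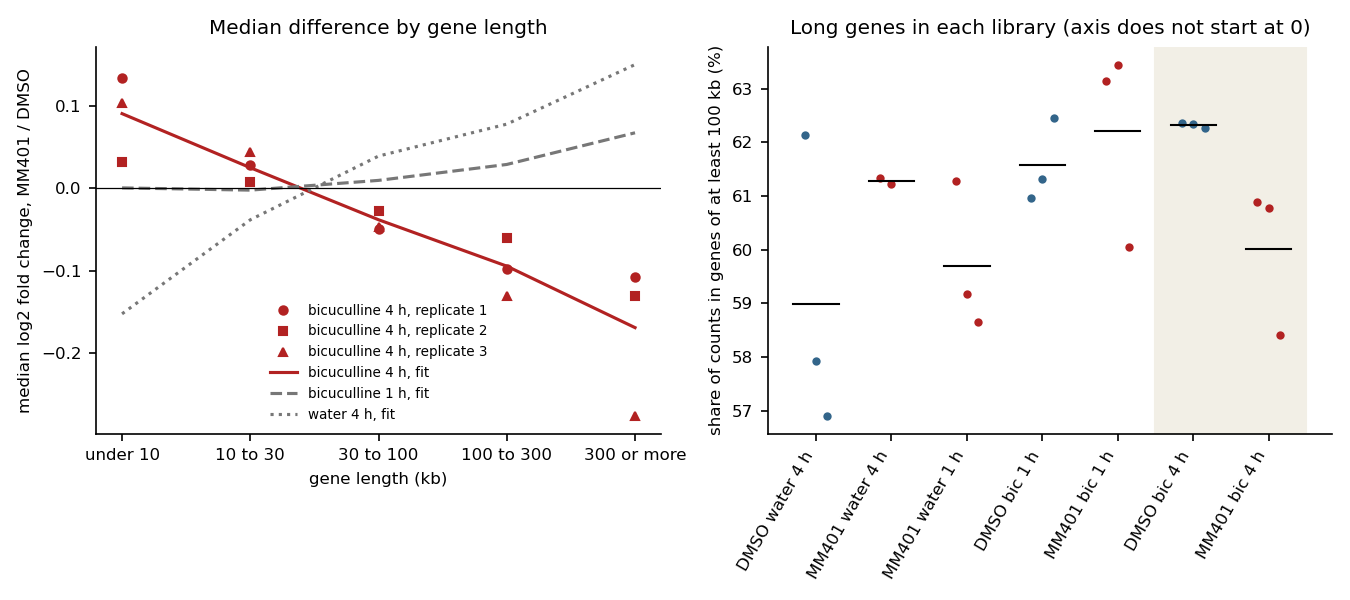
Left, the median log2 fold change of MM401 over DMSO in 5 classes of gene length, for the 3 same-numbered pairs (points) and the fit (red line) in bicuculline at 4 h, and for the fits in bicuculline at 1 h (dashed) and water at 4 h (dotted). Right, the share, in percent, that genes 100 kb or longer took of each library's counts, with group means as lines, on an axis that does not start at 0; the shaded MM401 libraries lie at 58.4% to 60.9% and the DMSO ones at 62.3% to 62.4%.

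Long genes more often had positive values in the response to bicuculline. In DMSO at 1 h of bicuculline against water at 4 h, 80.6% of genes 100 kb or longer and 35.0% of genes under 30 kb had a positive log2 fold change, and the 3 water libraries there had long-gene shares of 62.1%, 57.9% and 56.9%. Of the 47 genes lower in MM401 with the block 42 had a positive value there, and of the 37 higher genes 23 did, against 45.6% of all genes in that fit. None of the 6 libraries compared entered that response.

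Genes of the machinery that MM401 targets were not called by edgeR in either fit. Kmt2a (chr9:44803354-44881274, minus strand) stood at 191, 209 and 208 CPM in DMSO and at 193, 201 and 179 CPM in MM401, with overlapping groups and a difference of -0.09 (95% interval -0.23 to 0.06). That difference ran from -0.13 to -0.04 with 1 library left out. Wdr5, which encodes the protein that MM401 binds, stood at 15.5, 14.7 and 16.3 CPM in DMSO and at 15.1, 15.5 and 16.1 CPM in MM401, a difference of 0.00 (-0.13 to 0.14). These intervals exclude a 2-fold change of either gene's nascent RNA, and the values say nothing of the activity of the enzyme. Of 19 genes of the H3K4 methyltransferase complexes 10 were positive, the median was 0.00 and 0 were called in either fit. Kmt2c, a sister enzyme of 227 kb, had the lowest unadjusted p among them, with -0.18 ± 0.06 (edgeR adjusted p = 0.161 with the block). All 5 H3K4 demethylase genes tested had negative values, from -0.11 to -0.05 with a median of -0.08, but 0 were called. Under plain library size that median turned to 0.03, where the median of all genes was 0.11. Developmental regulators linked to MLL1 in other tissues, of which 7 of 11 could be tested, had a median of -0.04 (-0.08 to -0.0050 with 1 library left out) and 0 calls, and their sign also turned under plain library size and, with the block, without replicate 1 (0.03).

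Synaptic scaling genes, 22 of them, had a median of -0.05 (0.06 under plain library size, -0.08 to -0.03 with 1 library left out) with 8 positive and 0 calls. Grip1, an AMPA receptor scaffold gene, and Sipa1l1, a spine protein gene, had values of -0.22 ± 0.10 and -0.20 ± 0.09, neither called with the block (edgeR adjusted p = 0.203 and 0.136), and Grip1 was at -0.13 without MM401 replicate 3. Stress programs gave no calls in either fit: 13 of 18 genes of endoplasmic reticulum stress and ATF4 were positive (median 0.09), 9 of 11 p53 target genes (0.18), 7 of 10 NRF2 genes (0.04), 5 of 10 heat shock genes (-0.00) and 6 of 12 interferon-stimulated genes (0.01). These medians moved with single libraries: that of the p53 targets was 0.08 without DMSO replicate 3 and that of the endoplasmic reticulum stress genes was -0.0049 without DMSO replicate 1. With 1 library left out in turn, heat shock genes ranged from -0.09 to 0.10, NRF2 genes from -0.00094 to 0.06 and interferon-stimulated genes from -0.22 to 0.23. The p53 targets had a median length of 9745 bases, within the class of short genes whose median was 0.09. Interferon-stimulated genes varied most between pairs, with medians of -0.37, 0.56 and -0.23 in pairs 1 to 3. Cholesterol synthesis genes had a median of 0.00 with 12 of 22 positive, cell cycle genes of -0.09 with 2 of 10 positive (0.02 under plain library size, -0.23 to 0.02 with 1 library left out) and cytosolic ribosomal protein genes of 0.02 with 40 of 78 positive, with 0 calls in each. Plain library size put the median of all genes at 0.11.

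**Figure D5:**
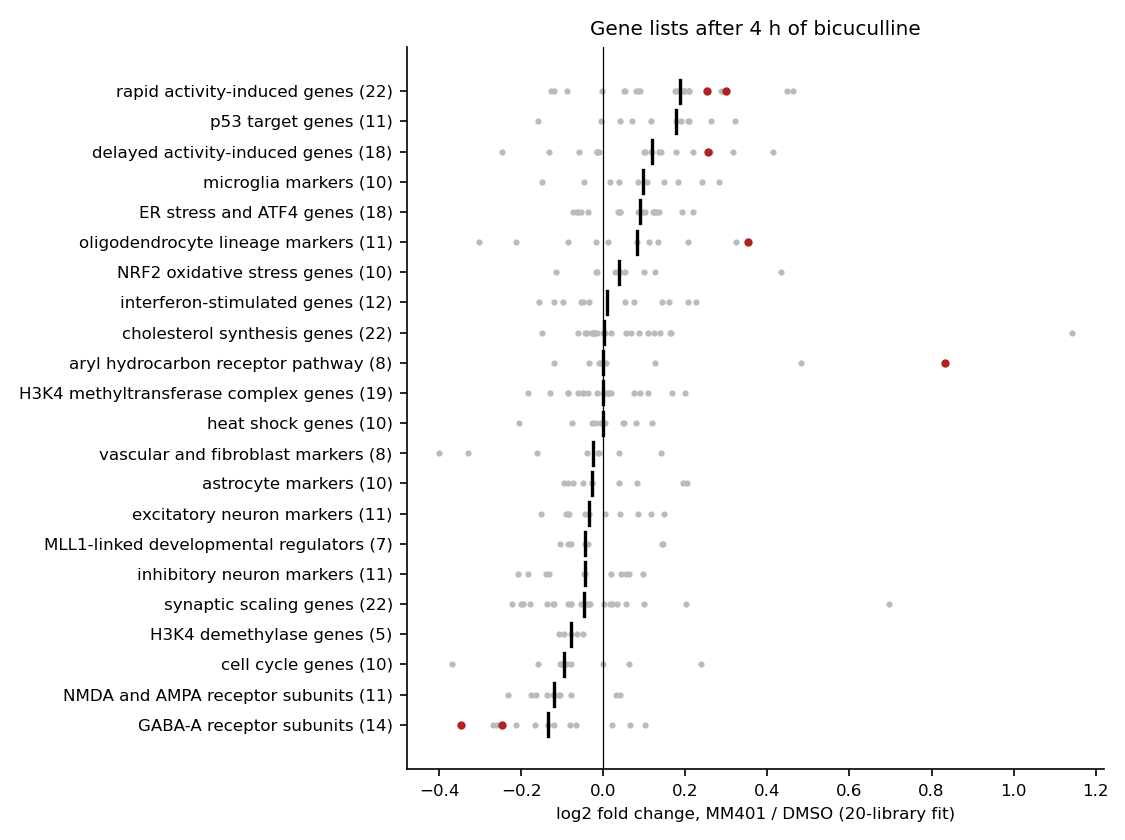
Log2 fold changes of MM401 over DMSO in the fit on 20 libraries for the tested members of 22 gene lists (points; number tested in brackets), with list medians as black bars and members called with the block in red. Medians run from -0.14 for GABA-A receptor subunits to 0.19 for rapid activity-induced genes, and most members of every list lie within 0.4 of 0.

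Summed markers of non-neuronal cells overlapped between the groups. Astrocyte markers summed to 1461 ± 67.3 CPM in DMSO and 1405 ± 43.4 CPM in MM401, oligodendrocyte lineage markers to 214 ± 7.63 and 225 ± 6.22 CPM, microglia markers to means of 56.9 and 61.2 CPM (51.7 to 61.6 and 58.4 to 62.8), and vascular and fibroblast markers to 13.5 ± 0.616 and 13.2 ± 1.32 CPM (SD, n = 3 each). The exact permutation p-values were 0.2, 0.2, 0.2 and 0.8. Within the same-numbered pairs the MM401 library was lower in 3 of 3 for the astrocyte sum (of which Slc1a2 held 672 to 779 CPM, while Sox9 and Fgfr3 were higher in 3 of 3), higher in 3 of 3 for the microglia sum, higher in 2 of 3 for the oligodendrocyte lineage sum and higher in 1 of 3 for the vascular and fibroblast sum. Of the 11 vascular and fibroblast markers 7 were under 1 CPM. Cspg4 was the only called gene of these lists with the block, and Olig1, another gene of that lineage, had a value of 0.32 ± 0.20 without a call.

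Whether the MM401 difference at 4 h of bicuculline departs from that in other conditions was tested as a difference of differences. The 4 h difference minus the 1 h difference gave 0 calls among 16959 genes (0%, 1195 with an unadjusted p under 0.05, 7.05%), and the 4 h difference minus that in water at 4 h gave 0 calls as well (0%, 2552 with an unadjusted p under 0.05, 15%). DESeq2 called 0 for the first and 294 for the second, 286 of them negative. With a block over the libraries of each contrast edgeR again called 0, with 1089 (6.59%) and 2513 (15.1%) genes at an unadjusted p under 0.05. These zeros moved with single replicate numbers. Without replicate 3 the blocked difference to that at 1 h had 424 calls (18 higher, 406 lower). Without replicate 1 the blocked difference to that in water had 2916 (1132 higher, 1784 lower), but there MM401 with water was 1 library, since its replicate 3 was already left out, and that library was assumed to vary like the other groups. Without replicate 2, which also leaves 1 library there, it had 0.

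By gene, Cyp1b1 had positive values in all 3 conditions: 0.95 ± 0.18 at 1 h of bicuculline (edgeR adjusted p = 0.0864), 0.83 ± 0.18 at 4 h and 0.48 ± 0.20 in water at 4 h (edgeR adjusted p = 0.327). Ahrr rose at 1 h of bicuculline (1.07 ± 0.14, edgeR adjusted p = 0.00302), where it was the only gene called (0.0059% of those tested), and in water at 4 h (0.87, edgeR adjusted p = 0.0349), where 14 genes were called higher (0.0826%), and its 4 h value of 0.48 ± 0.14 was not called. The 4 h value minus the 1 h value, -0.58 for Ahrr, did not pass the adjustment (edgeR adjusted p = 0.7). Fos and Dusp1 differed little at 1 h (0.02 ± 0.16 and -0.10 ± 0.11), and their differences between the times were 0.23 and 0.40 (edgeR adjusted p = 0.835 and 0.7). Gabra4 had values of 0.15 ± 0.13 at 1 h and 0.16 in water, against -0.35 at 4 h, with differences of -0.49 and -0.51 that did not pass either (edgeR adjusted p = 0.7 and 0.253). Of the 84 genes called with the block, 21 of the 37 higher and 5 of the 47 lower had the same sign at 1 h, and 15 and 5 had it in water, where 44.0% and 40.8% of all genes did. In the other conditions longer genes had the higher medians: the median of genes of 300 kb or more was 0.07 at 1 h and 0.15 in water, and that of genes under 10 kb was 0.00 and -0.15. Over 12377 genes the 4 h differences correlated with those at 1 h at Pearson's r = -0.13 and with those in water at r = -0.20, a description over genes, which are not independent, from pairs of contrasts with no library in common.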

How the data were processed

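Bromouridine-labelled RNA was sequenced in 21 libraries, and this report uses the 6 libraries of MM401 or DMSO with bicuculline at 4 h, with groups and replicate numbers from the labels. The authors deposited raw read counts of 24984 genes, made with featureCounts over whole gene spans on build mm10, per the file headers. The submitters' processing notes also name Bowtie2, UMI-tools, deepTools and DESeq2; their versions, the use of strand and the handling of duplicates or multiply placed reads were not given in the sources used here. Of the 84 genes called with the block 18 overlap another gene's span, and 412 genes of the table have several positions.

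Counts were filtered with filterByExpr (minimum count 10, minimum total 15), scaled by TMM and tested with edgeR 4.0.16 (robust quasi-likelihood, R 4.3.3) on 20 libraries without a block, with Benjamini-Hochberg adjustment over 16959 genes. Fold changes are log2, errors are SE unless marked SD, and tests are two-sided. The common biological coefficient of variation was 8.77%, and 5.73% with the block, and the method was tested on simulated data. Replicates differed by more than sampling noise (chi-square per degree of freedom 7.65 to 23.3). The residuals of MM401 and DMSO libraries with the same number correlated at 0.15, 0.11 and 0.17 across genes. Those with different numbers correlated at -0.12 to -0.04, but residuals cancel within a group, so these values are in part fixed by the first. From the same-number values the numbers were taken to pair the samples, and the labels do not say what the numbers stand for. The members and gene lists were chosen with earlier results of these data known, and list counts are descriptions. Named genes were the 10 smallest p-values per direction, the 8 largest blocked changes per direction, 12 fixed genes, and in each list the called members and the 3 largest changes, with limits on level (2 CPM), overlap and gene type. Alternatives were DESeq2 1.42.0, limma-voom 3.58.1, other scalings and filters, libraries left out, wider blocks and a gene length correction. A planned description by promoter CpG content covers only the 75.5% of tested genes that had a promoter sequence. From the lowest to the highest quartile of CpG count, the median log2 fold changes were -0.0024, 0.0051, 0.0012 and -0.017 in the fit on 20 libraries. The table held 0 mitochondrial genes and 0 unused sample columns.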

Additional observations from a re-analysis of the deposited data

How the results depend on the processing

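No gene was called without the block under any scaling, filter, number of libraries or left-out library in edgeR, and DESeq2 called 7. The 84 calls with the replicate block became 533 in DESeq2 (20 higher, 513 lower), 778 with plain library size (729 higher, 49 lower), 512 with no filter, 46 with the stricter filter, 8 with the gene length correction, and 0 without the block, with a block over the 12 bicuculline libraries or over all deep libraries. Leaving out 1 replicate number gave 1 to 257 calls (120 without replicate 2). For the 4 h difference minus that at 1 h this gave 0 to 424 calls, and for that minus water 0 to 2916, the latter with 1 library of MM401 in water, where DESeq2 called 294. All 84 genes kept their sign in all of these, of 83 measured in the stricter filter. The block in DESeq2, in limma-voom (100 calls), with upper-quartile scaling (79 calls), the other scalings and filters and over 12 libraries, and the gene length correction, were chosen after seeing the data. The cause of these shifts was not tested.

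The single genes whose sign turned were Arc, Npas4, Bdnf, Wdr5, Kmt2a and Kdm5b, which had no call except Npas4 with plain library size and the replicate block (0.17, edgeR adjusted p = 0.034). Plain library size also turned the medians of several lists, as given beside them, and raised the median of all genes to 0.11. Without 1 library Arc ranged from -0.075 to 0.17, Npas4 from -0.052 to 0.22, Bdnf from -0.035 to 0.010 and Wdr5 from -0.034 to 0.044, and without 1 pair in the replicate block Arc from -0.036 to 0.17, Bdnf from -0.014 to 0.033 (0.0067 without replicate 2) and Wdr5 from -0.0065 to 0.049. The length correction gave -0.052 for Arc (block -0.049), -0.034 for Npas4 (block -0.025), 0.013 for Bdnf (block 0.0099) and -0.016 for Wdr5 (block -0.017). Plain library size gave 0.10 for Bdnf (block 0.10), 0.024 for Kmt2a (block 0.025) and 0.0022 for Kdm5b (block 0.0027). Bdnf was 0.0027 with upper-quartile scaling (block 0.0043), 0.0089 in the groups compared alone, 0.0088 with the block, and with the block 0.0082 in limma-voom, 0.0096 with no filter, 0.015 with the stricter one and 0.0073 over 12 libraries; DESeq2 gave Wdr5 -0.0064. The share of counts in long genes changed by -2.73 to -1.50 points without 1 library, and by -2.22 and -2.20 points with 80 kb and 200 kb as the limit. Whether depth limits the calls was not tested.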

Other observations

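Further groups can be read among the 84 genes called with the replicate block; they were chosen after their values were seen and carry no test as groups. Besides Dusp1, the MAP kinase phosphatase genes Dusp6 (77.0 ± 8.40 to 92.4 ± 0.480 CPM, SD, n = 3) and Dusp8 (28.8 ± 0.333 to 34.0 ± 2.63 CPM) were higher in MM401, by 0.29 ± 0.06 and 0.26 ± 0.06 on the log2 scale with the block (edgeR adjusted p = 0.0294 and 0.0417). Receptors and channels were among the lower genes: Chrm3, a muscarinic receptor gene (-0.24), Htr2c, a serotonin receptor gene (-0.24), and Trpc5, a cation channel gene (-0.23). So were the adhesion genes Cdh18 (-0.26), Cntnap5a (-0.25) and Cntnap5b (-0.26), and Phf8, a histone demethylase gene (-0.22). These 7 genes are 113 to 896 kb long, and without the third pair none of them and neither phosphatase gene was called.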
